A study of Mus musculus with 6 samples.

Results

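Fatty acid oxidation and its control by PPAR alpha were followed through 37 listed genes in the hearts of mice that lack cyclophilin D. Members were taken by gene symbol: a gene counted as measured where a probe set of the array carried its symbol and no other. Of the 37 genes, 35 were measured this way, by 37 probe sets out of 23410 with a gene symbol, since Hadhb and Acaca had 2 probe sets each. Acsl3 shared its probe set with Utp14b, and the expression of Ucp2 was not analysed here. Both enter only the promoter counts. Total RNA of 6 hearts was read on 1 Affymetrix Gene 1.0 ST array each. The 3 Ppif-/- hearts came from mice with a global knockout of Ppif that had been bred from Sv129 onto C57BL/6, and the 3 WT hearts came from C57BL/6 mice. All mice were 8 weeks old, an age picked to precede dysfunction of the heart, and the labels name no treatment other than removal of the heart. The labels do not say how many backcrosses were made, whether the controls were littermates, or what the sex and feeding state of the mice were.

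The adult heart takes most of its energy from long-chain fatty acids. Acyl-CoA synthetases activate them, the carnitine shuttle carries the acyl groups into the mitochondrial matrix, and the beta-oxidation spiral shortens them while handing electrons to the respiratory chain. Malonyl-CoA blocks the entry step. PPAR alpha is a nuclear receptor that is activated by fatty acids, pairs with RXR and drives transcription of much of this pathway. Cyclophilin D, the product of Ppif, is a matrix isomerase that favours opening of the mitochondrial permeability transition pore.

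Values are log2 expression per probe set, so a difference of 1 is a doubling, and they compare hearts for the same gene, not genes with each other. Differences are Ppif-/- minus WT with the standard error (SE) of a limma fit on all 23410 probe sets, and a gene was called at an adjusted p under 0.05. With 3 hearts a side an exact permutation test of 1 gene cannot go below 0.1, so only the fit's p-values are given. Array medians lay between 6.03 and 6.11, and pairs of arrays of 1 genotype had correlations from 0.995 to 0.997, and pairs across genotypes from 0.991 to 0.995. Ppif itself read 6.00 to 6.44 in the Ppif-/- hearts and 11.28 to 11.49 in the WT hearts as labelled. WT heart 2 stood apart within its group: 2.55% of its probe sets lay more than 0.5 from the mean of the other WT hearts, against 0.906% to 1.95% for the other 5 hearts, measured likewise. Differences of members that moved by more than 1.5 times without it are therefore given both ways. Of 8 cardiomyocyte markers, all measured, 0 passed in limma. At an unadjusted p under 0.05, 1 marker, Ryr2 (-0.19), was lower, as were 6.81% of all probe sets. The summed level of the 8 markers (log2 of the sum of linear values) was 16.51 to 16.53 in Ppif-/- and 16.49 to 16.54 in WT hearts.

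None of the measured genes passed the threshold. Of the 35 measured genes 0 were called, where 1.09% of all probe sets tested were. At an unadjusted p under 0.05, 6 genes were lower (17.1%) and 0 higher, while 6.81% of all probe sets tested were lower and 6.1% higher at that level. The 6 were Acad11, Acsl6, Cpt2, Acacb, Mlycd and Acad10, with limma adjusted p-values from 0.11 to 0.30. With an intensity trend in the variance model 12 genes were lower and 1 higher at the unadjusted level, as were 7.3% and 6.41% of all probe sets in that fit. The direction was uneven nevertheless. The difference was below 0 for 28 genes and above 0 for 7, and the median over the 35 genes was -0.08, against -0.0023 over all probe sets tested, of which 50.8% were below 0. All 3 Ppif-/- hearts were below all 3 WT hearts for 14 genes (40% of 35) and above them for 1 gene, Ucp3, where 10.6% and 9.21% of all probe sets were so ordered. Among the 11705 probe sets at or above the median brightness, which held 34 of the 35 genes, 9.24% were lower at the unadjusted level, 15.1% had every Ppif-/- heart below every WT heart, 54.3% had a difference below 0, and the median difference was -0.01.

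**Figure D1:**
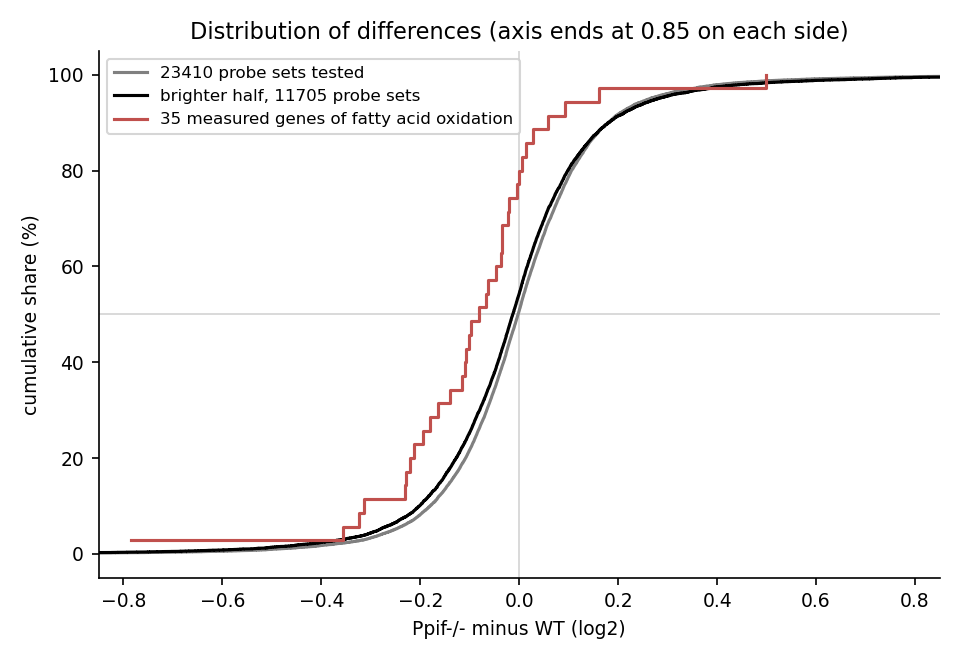
Cumulative share (y axis, percent) of the difference Ppif-/- minus WT (x axis, log2) for all 23410 probe sets tested, for the 11705 at or above the median brightness and for the 35 measured genes of fatty acid oxidation. The curve of the 35 genes crosses 50% at -0.08 and lies to the left of both others near 0.

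The lean was small and was not carried evenly by the hearts. Expressed as the mean deviation of the 35 genes from their own 6-heart means, the Ppif-/- hearts stood at -0.05, -0.0031 and -0.09 and the WT hearts at 0.01, 0.08 and 0.05. Ppif-/- heart 3 had the lowest value for 17 genes and Ppif-/- heart 1 for 11, while Ppif-/- heart 2 was lowest for 0 genes and highest for 5. WT heart 2 was highest for 13 genes and WT heart 3 for 9. Without WT heart 2, the difference was below 0 for 29 genes, the median was -0.06, and 16 genes had every Ppif-/- heart below both remaining WT hearts, an order that 15.9% of all probe sets then showed. These are counts over genes that share the same 6 arrays, so they are a description and not a test. In whole hearts, fewer cells of a type and less RNA per cell cannot be told apart.

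**Figure D2:**
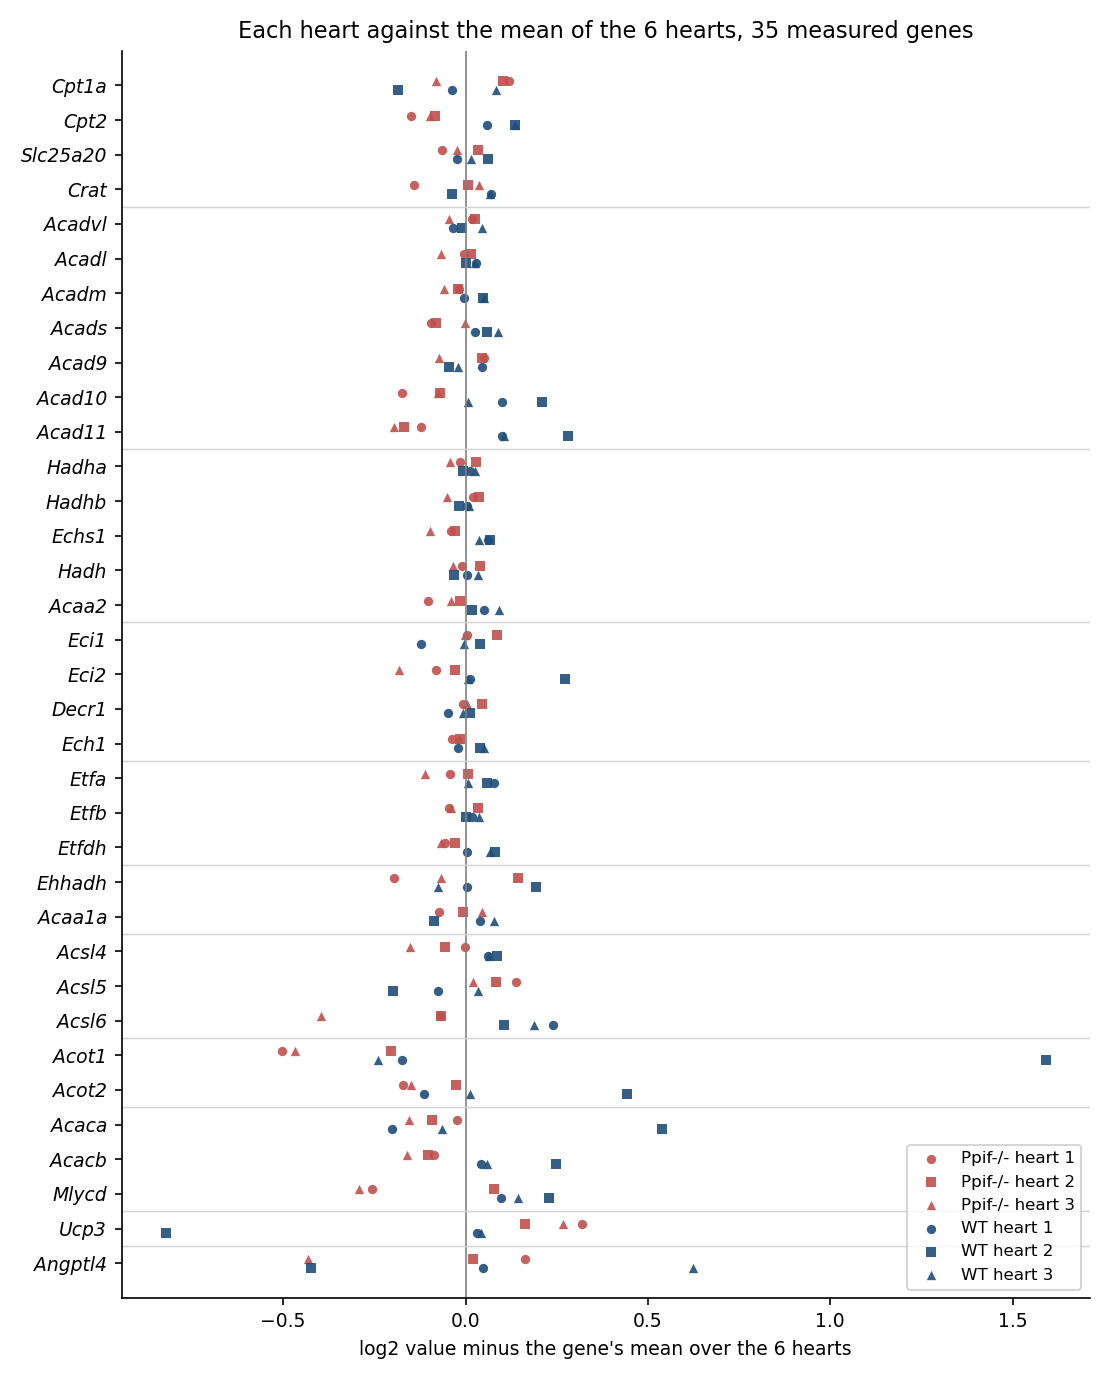
Each of the 35 measured genes (rows, grouped by role) in each heart (points), as the log2 value minus that gene's mean over the 6 hearts (x axis). WT heart 2 stands far from the other hearts for Acot1, Acot2, Acaca and Ucp3, and Hadha, Hadhb and Hadh lie close to 0.

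The RefSeq table of GRCm38.p6 held a window before the transcription start for 32 of the 37 genes. The 4 sequences below belong to the lower genes with the smallest p-values (Acad11, Cpt2 and Acsl6) and to the 1 gene whose groups separated upward (Ucp3), and are shown so that promoter elements can be read beside the values. They are the bases just upstream of the start at chr9:104063524-104063723 (plus strand), chr4:107923590-107923789 (minus strand), chr11:54303624-54303804 (plus strand, from 1 of 3 windows in the table, without the 19 bases next to the start, which lie inside the annotated gene) and chr7:100472791-100472990 (plus strand). The Acsl6 window was picked from its 3 for the most AGGTCA matches. Capitals mark matches on either strand to AGGTCA, the core motif of PPAR, RXR and ERR receptors, to its extended ERR form TCAAGGTCA, which contains it, to the GC box GGGCGG and to the CCAAT box.
Acad11: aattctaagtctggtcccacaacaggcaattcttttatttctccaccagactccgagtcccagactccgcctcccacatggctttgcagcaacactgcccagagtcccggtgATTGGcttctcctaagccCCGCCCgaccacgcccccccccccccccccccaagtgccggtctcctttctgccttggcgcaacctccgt
Cpt2: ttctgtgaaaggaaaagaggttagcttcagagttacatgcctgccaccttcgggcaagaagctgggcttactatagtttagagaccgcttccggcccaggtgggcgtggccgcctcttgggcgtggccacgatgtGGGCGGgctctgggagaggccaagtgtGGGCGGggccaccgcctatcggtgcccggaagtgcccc
Acsl6: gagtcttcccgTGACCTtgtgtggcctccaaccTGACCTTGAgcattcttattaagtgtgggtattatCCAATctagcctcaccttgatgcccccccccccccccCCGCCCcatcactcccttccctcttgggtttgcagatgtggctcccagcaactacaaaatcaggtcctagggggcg
Ucp3: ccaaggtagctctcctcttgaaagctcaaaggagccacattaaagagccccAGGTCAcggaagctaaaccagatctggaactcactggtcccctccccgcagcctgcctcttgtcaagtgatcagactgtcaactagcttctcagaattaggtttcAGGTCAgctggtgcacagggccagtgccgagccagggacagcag
In the 250 bases before the start, AGGTCA was found in 6 of the 32 genes (18.8%) and in 14.6% of 17492 protein-coding genes of the table. The 6 were Cpt1a, Acadvl, Acadm, Echs1, Acsl6 and Ucp3, and Ucp3 held it at positions -149 and -44 counted from the start. TCAAGGTCA was found in Acsl6 alone, at -167, against 0.36% of protein-coding genes. The full PPAR element in its exact form, a direct repeat of AGGTCA with 1 base between the copies, was found in 0 of the 32. It was found in 0.0515% of protein-coding genes, and inexact copies were not searched for. A GC box stood in 20 of the 32 (62.5%, against 45.8%) and a CCAAT box in 16 (50%, against 39.5%). A match says only that the letters are there, and these windows do not cover enhancers or introns.

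Entry into mitochondria runs through the carnitine shuttle. Cpt2, the inner-membrane palmitoyltransferase that returns acyl groups to CoA, read 10.92, 10.98 and 10.97 in the Ppif-/- hearts and 11.13, 11.20 and 11.20 in the WT hearts. The groups did not overlap, and the difference of -0.22 ± 0.06 did not pass (limma adjusted p = 0.20). With an intensity trend in the variance model its adjusted p was 0.0493. Its GC boxes at -65 and -38 are among the capitals above. Cpt1a, the outer-membrane isoform best known from liver that malonyl-CoA inhibits, read 9.27, 9.26 and 9.07 against 9.12, 8.97 and 9.24, and its groups overlapped (0.09 ± 0.09, and 0.02 without WT heart 2). The carnitine-acylcarnitine carrier Slc25a20 (-0.04 ± 0.07) and the matrix carnitine acetyltransferase Crat (-0.07 ± 0.08) overlapped as well, and without that heart they stood at -0.01 and -0.10. For the 4 genes the 95% intervals of the difference reached from -0.37 to 0.31.

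The acyl-CoA dehydrogenases start each turn of the spiral. Those for the common chain lengths gave small differences, the very-long-chain enzyme Acadvl by -0.0014 ± 0.06, the long-chain enzyme Acadl by -0.04 ± 0.06 and the medium-chain enzyme Acadm, a classic PPAR target, by -0.06 ± 0.06. The short-chain enzyme Acads stood at -0.12 ± 0.06. Acadm and Acads had all Ppif-/- hearts below all WT hearts, at 13.39 to 13.43 against 13.44 to 13.50 and at 10.49 to 10.58 against 10.61 to 10.67, and Acadvl and Acadl overlapped. Acad9, which also helps to assemble complex I, overlapped too (0.01 ± 0.07). Without WT heart 2, Acadvl stood at -0.0063 and Acad9 at -0.0062.

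Acad11 and Acad10 gave the largest differences of these 7 genes. Acad11, a dehydrogenase reported to act on long chains and hydroxylated acids, read 10.96, 10.92 and 10.89 in the Ppif-/- hearts and 11.19, 11.37 and 11.19 in the WT hearts. It had the smallest p of the 35 genes, with a difference of -0.32 ± 0.08 that did not pass (limma adjusted p = 0.11). It passed when only the brighter probe sets were tested (adjusted p = 0.0485) and with an intensity trend in the variance model (0.0286). Without WT heart 2 the difference was -0.26 (adjusted p = 0.21). Acad10, a less studied relative, read 6.76, 6.87 and 6.86 against 7.04, 7.15 and 6.95, again with no overlap (-0.21 ± 0.08, limma adjusted p = 0.30). Acad12, its neighbour on the chromosome and no member of the 37, is given with the other genes below.

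The next steps of the spiral gave small differences. The trifunctional protein subunits Hadha and Hadhb, which hydrate, oxidise and cleave long-chain intermediates, stood at -0.02 ± 0.06 and 0.0048 ± 0.06, and the other Hadhb probe set at 0.02 ± 0.06. Hadh, the short-chain hydroxyacyl-CoA dehydrogenase, stood at -0.0045 ± 0.06. Without WT heart 2, Hadhb stood at -0.0034 and Hadh at -0.02. The hydratase Echs1 read 11.19 to 11.26 in Ppif-/- and 11.33 to 11.36 in WT hearts without overlap (-0.11 ± 0.06), as did the thiolase Acaa2 at 12.78 to 12.87 against 12.90 to 12.97 (-0.11 ± 0.06). Neither passed (limma adjusted p = 0.51 and 0.55). The 95% intervals of these 5 genes lay between -0.26 and 0.15.

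Unsaturated chains need isomerases and a reductase. Eci1 (0.06 ± 0.07), Decr1 (0.03 ± 0.06) and Ech1 (-0.05 ± 0.06) had overlapping groups. Eci2, an isomerase found in peroxisomes as well as mitochondria, read 9.90 to 10.05 in the Ppif-/- hearts and 10.09, 10.35 and 10.09 in the WT hearts (-0.19 ± 0.09, limma adjusted p = 0.43). Its groups did not overlap, WT heart 2 was its highest, and without that heart the difference was -0.11. Eci1 then stood at 0.09. Electrons leave the dehydrogenases through the flavoprotein of Etfa and Etfb and its membrane oxidoreductase Etfdh. Etfa (-0.10 ± 0.07) and Etfdh (-0.10 ± 0.06) had every Ppif-/- heart below every WT heart, and Etfb (-0.04 ± 0.06) did not. In peroxisomes, the bifunctional enzyme Ehhadh (-0.08 ± 0.11) and the thiolase Acaa1a (-0.02 ± 0.07), both strong PPAR alpha targets in mouse liver, overlapped between the groups. They stood at -0.0044 and -0.07 without WT heart 2.

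**Figure D3:**
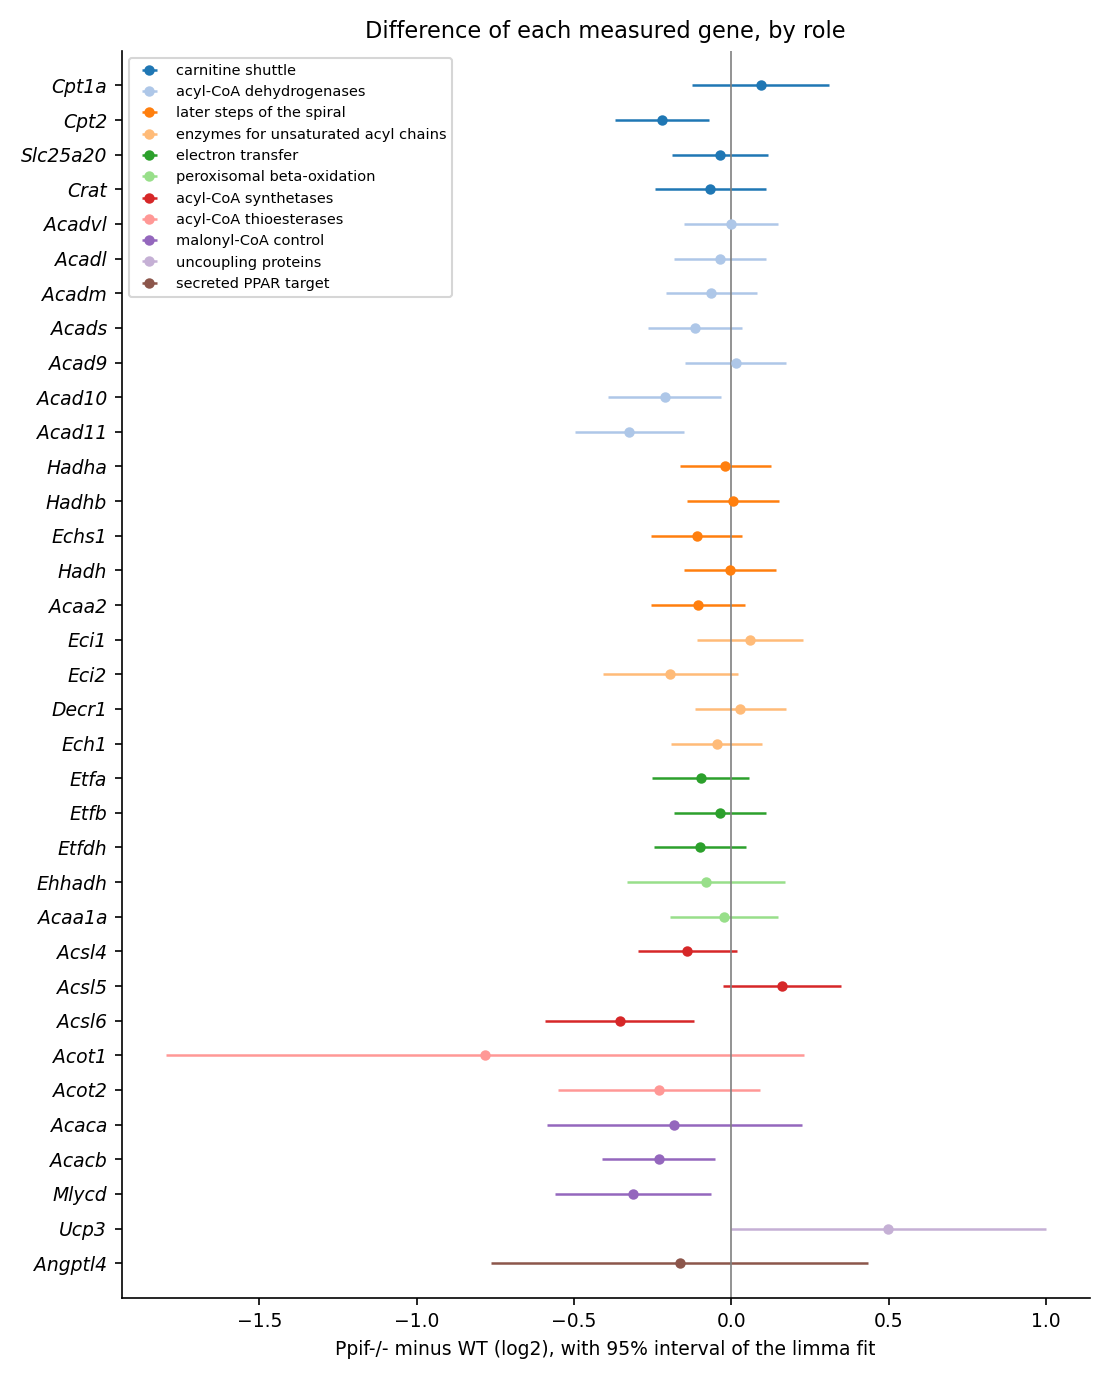
Difference Ppif-/- minus WT (x axis, log2) of the 35 measured genes (rows), with the 95% interval of the limma fit and colours for the roles. The widest interval is that of Acot1, from -1.80 to 0.23, and 28 of the 35 points lie below 0.

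Activation of fatty acids showed both signs. Acsl6, a synthetase best known from brain and muscle, read 7.11, 7.12 and 6.79 in the Ppif-/- hearts and 7.43, 7.29 and 7.37 in the WT hearts (-0.36 ± 0.10, limma adjusted p = 0.19). The groups did not overlap, and Ppif-/- heart 3 was the lowest of all. Without that heart the difference was -0.25. Acsl4, which prefers arachidonate, read 7.66 to 7.81 against 7.87 to 7.89, without overlap (-0.14 ± 0.07). Acsl5, a synthetase of the endoplasmic reticulum and mitochondria, leaned the other way with overlap (0.16 ± 0.08, limma adjusted p = 0.45, and 0.10 without WT heart 2).

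The acyl-CoA thioesterases Acot1 and Acot2 free fatty acids again, in the cytosol and in the matrix, and both are known PPAR alpha targets. Acot1 read 7.45, 7.75 and 7.49 in the Ppif-/- hearts and 7.78, 9.55 and 7.72 in the WT hearts. Acot2 read 11.82, 11.97 and 11.84 against 11.88, 12.43 and 12.00. In both genes WT heart 2 was far above all other hearts, by 1.80 and 0.49 over the mean of the other WT hearts. The differences were -0.78 ± 0.44 and -0.23 ± 0.14 with it and -0.18 and -0.06 without it, and neither passed in either case (limma adjusted p = 0.51, 0.54, 0.59 and 0.84). The 2 genes are close paralogs that lie side by side on the chromosome, and how far their probes read each other was not resolved.

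Malonyl-CoA, which holds back the entry of fatty acids, is made by acetyl-CoA carboxylases and removed by malonyl-CoA decarboxylase, the product of Mlycd. Acacb, the mitochondrial carboxylase of the heart, read 10.86, 10.84 and 10.78 in the Ppif-/- hearts and 10.99, 11.19 and 11.00 in the WT hearts. Mlycd read 8.17, 8.50 and 8.14 against 8.52, 8.65 and 8.57. In both genes every Ppif-/- heart lay below every WT heart, and neither passed. The differences were -0.23 ± 0.08 for Acacb and -0.31 ± 0.11 for Mlycd (limma adjusted p = 0.26 for each). For Mlycd, Ppif-/- heart 2 lay close to the lowest WT heart. Acaca, the cytosolic carboxylase of fatty acid synthesis, read 7.64, 7.57 and 7.50 against 7.46, 8.20 and 7.60, and its other probe set read 6.07, 6.06 and 6.14 against 6.32, 6.97 and 6.11. WT heart 2 was the highest on both. The leading probe set gave -0.18 ± 0.18, and without WT heart 2 it turned to 0.04 (limma adjusted p = 0.73 and 0.91). The other probe set gave -0.38 ± 0.20 (limma adjusted p = 0.47). On it WT heart 1 also lay above all Ppif-/- hearts and WT heart 3 did not, so the turn of sign is shown for the leading probe set only.

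**Figure D4:**
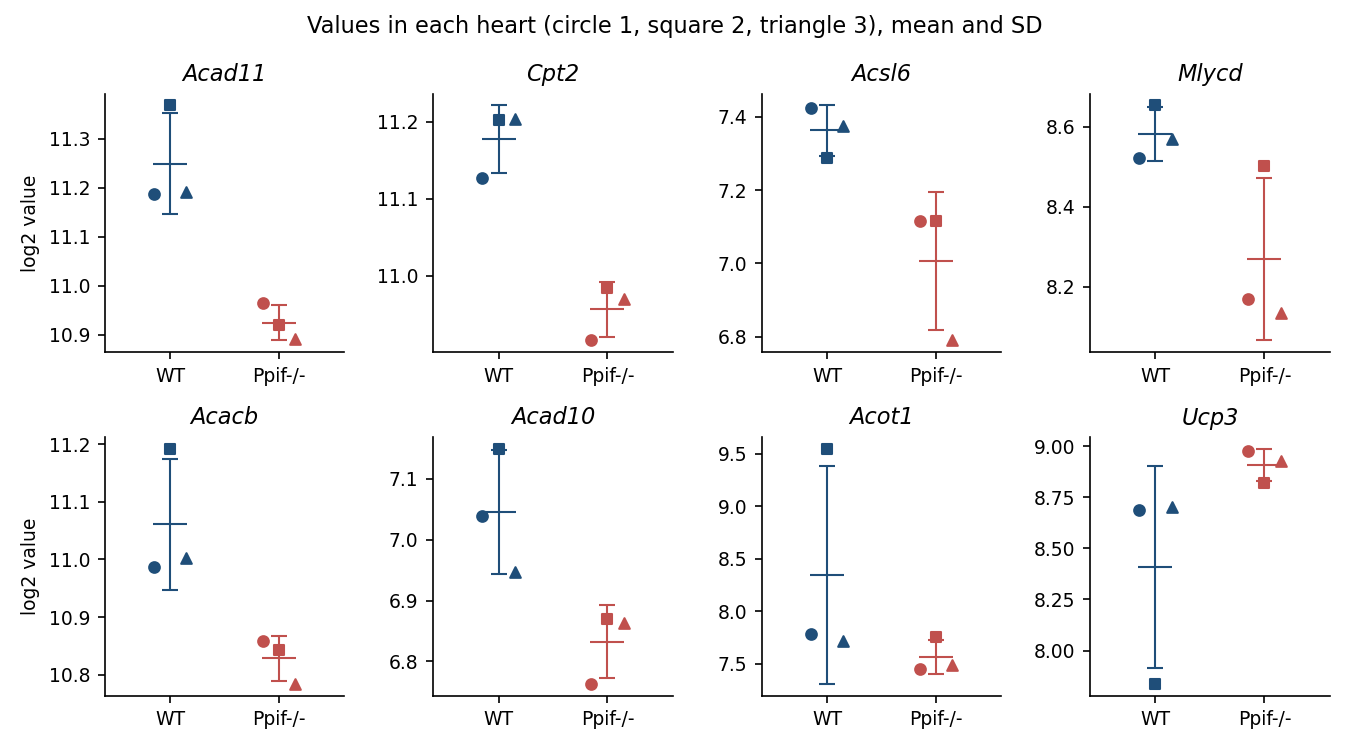
Log2 values (y axes, which do not start at 0) in each WT and Ppif-/- heart for 8 genes, with the mean and the standard deviation of each group of 3. The groups of Acad11, Cpt2, Acsl6, Mlycd, Acacb and Acad10 do not overlap, Acot1 is spread by WT heart 2 at 9.55, and Ucp3 is higher in all 3 Ppif-/- hearts.

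Ucp3, a mitochondrial carrier of muscle whose transcript follows fatty acid supply, was the 1 gene with every Ppif-/- heart above every WT heart. It read 8.98, 8.82 and 8.93 in the Ppif-/- hearts and 8.69, 7.84 and 8.70 in the WT hearts. The difference of 0.50 ± 0.22 did not pass (limma adjusted p = 0.39), and WT heart 2 lay 0.86 below the mean of the other WT hearts. Without that heart the difference was 0.21 (adjusted p = 0.37), with the groups still apart. Angptl4, a secreted inhibitor of lipoprotein lipase and a sensitive PPAR target, read 6.41, 6.26 and 5.81 against 6.29, 5.82 and 6.87. It was scattered in both groups (-0.17 ± 0.26), and its sign depended on Ppif-/- heart 3 and on WT heart 3 (0.0094 and 0.10 without them). It stood at -0.42 without WT heart 2. In WT heart 2, then, Acot1, Acot2 and Acaca were high while Ucp3 and Angptl4 were low relative to the other WT hearts.

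Other genes of the pathway, outside the 37, leaned the same way in part. Of 23 measured further beta-oxidation genes, 0 passed in limma, and 7 were lower and 0 higher at an unadjusted p under 0.05. Every Ppif-/- heart lay below every WT heart for 9 of them and above for 1, Crot (0.07). The median was -0.05, with 17 genes below 0 and 6 above. Of all probe sets tested, 6.81% were lower and 6.1% higher at the unadjusted level, and 10.6% and 9.21% were so ordered. The smallest p-values were those of the carnitine transporter Slc22a5 (-0.31 ± 0.07, adjusted p = 0.11) and of Acad12 (-0.58 ± 0.14, adjusted p = 0.12). Acad12 read 9.10, 9.02 and 8.63 in the Ppif-/- hearts and 9.38, 9.68 and 9.44 in the WT hearts. Of 17 further PPAR targets 0 passed in limma, and 4 were lower and 0 higher at the unadjusted level (6.81% and 6.1% of all probe sets). Their median was -0.05, with 12 genes below 0 and 5 above. Slc22a5 is in both lists and is counted in each. Among them were the pyruvate dehydrogenase kinase Pdk4, at 11.57, 11.49 and 11.18 against 12.19, 13.19 and 12.45, and the mitochondrial CoA carrier Slc25a42 (-0.39 ± 0.08, adjusted p = 0.07). Pdk4 was again highest in WT heart 2, and differed by -1.20 ± 0.24 with that heart and by -0.91 without it (limma adjusted p = 0.0709 and 0.0538).

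The transcript of the receptor overlapped between the groups, and its sign turned with quantile normalization, with array weights and without Ppif-/- heart 1. Ppara read 9.47, 9.70 and 9.69 in the Ppif-/- hearts and 9.62, 9.62 and 9.65 in the WT hearts (-0.01 ± 0.08). Of 16 measured genes for PPAR alpha, its partners and coactivators, 1 was called lower, as were 0.461% of all probe sets tested. At the unadjusted level 1 was lower and 1 higher (6.81% and 6.1% of all probe sets), and the list median was -0.03. The called gene was Lpin1, a phosphatidate phosphatase that also coactivates PPAR alpha with PGC-1 alpha. Lpin1 read 10.75, 10.72 and 10.71 against 11.25, 11.09 and 11.13 (-0.43 ± 0.07, limma adjusted p = 0.04). That call did not survive the removal of any single heart (adjusted p = 0.06 to 0.13), nor did it hold with all probe sets of the table tested (0.10) and with the replicate number as a block (0.10). Ppargc1b, a coactivator related to PGC-1 alpha, stood at 0.23 ± 0.09 and did not pass (adjusted p = 0.32). It stood at 0.15 without WT heart 2.

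Of 15 genes of malonyl-CoA supply and AMP kinase, 11 further thioesterases and 3 genes of ketone body breakdown, 0 passed in limma. At the unadjusted level 2 were lower and 1 higher, 2 lower and 0 higher, and 0 in either direction. Of all probe sets tested, 6.81% were lower and 6.1% higher at that level. The members with the smallest p-values were the AMP kinase subunit Prkag2 (0.29 ± 0.09) and the malonyl transferase Mcat (-0.21 ± 0.07), the thioesterases Acot11 (-0.40 ± 0.11) and Acot7 (-0.22 ± 0.08), and the ketone enzymes Oxct1 (-0.02 ± 0.07) and Bdh1 (-0.04 ± 0.12). The list medians were -0.0019, -0.03 and -0.02.

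**Figure D5:**
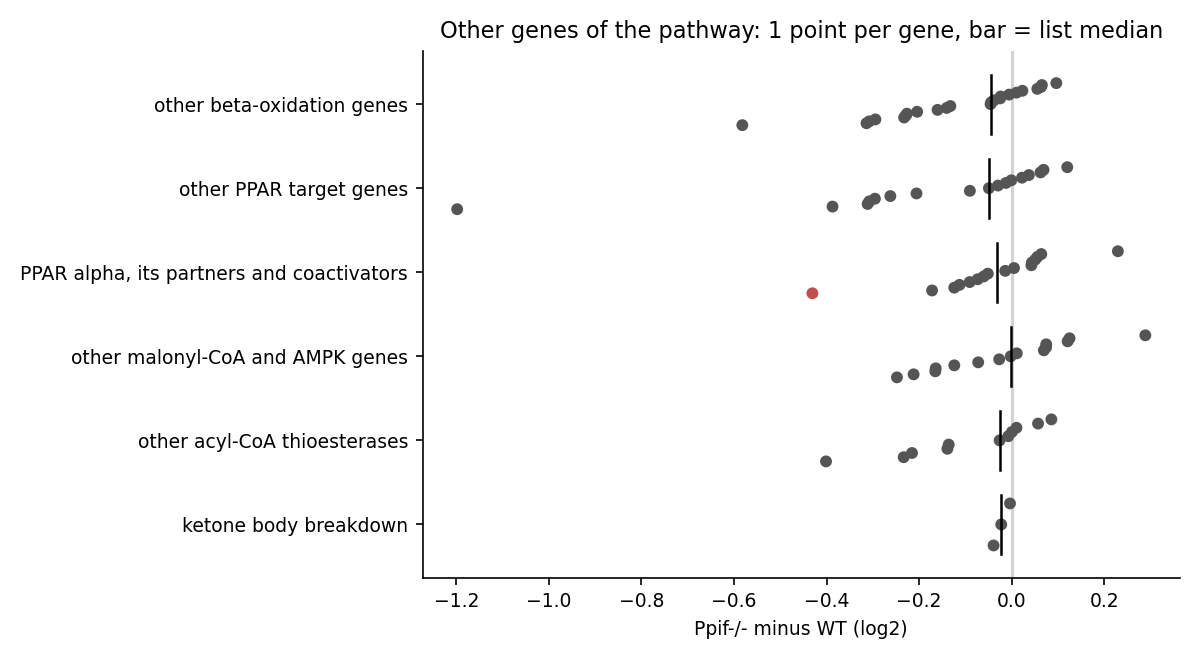
Difference Ppif-/- minus WT (x axis, log2) of the other genes of the pathway, 1 point per measured gene in 6 lists (y axis), with a bar at each list's median. The 1 coloured point is Lpin1, the gene that passed an adjusted p of 0.05, and the point farthest to the left is Pdk4 at -1.20.

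Markers of other cells were read beside these genes. White adipocyte markers, of which 6 of 7 were measured, gave 0 calls, lay between 3.97 and 5.96 on every array, and summed to 7.72 to 7.87 in Ppif-/- and 7.80 to 7.87 in WT hearts. The lists for brown adipocytes, fast skeletal muscle, endothelium, blood and hepatocytes also gave 0 calls in limma, with 1 gene at an unadjusted p under 0.05, the blood gene Alas2 (0.38). Of 6 macrophage markers Cd68 was higher (0.56) and the list's summed level did not overlap, at 10.92 to 11.10 in Ppif-/- and 10.81 to 10.82 in WT hearts. The difference was above 0 for 5 of them. Csf1r went the other way (-0.10), with every Ppif-/- heart below every WT heart. Of 6 smooth muscle and pericyte markers Tagln was lower (-0.51), and of 6 fibroblast markers Pdgfra was lower (-0.44), with summed levels that overlapped between the groups. In the first list 5 markers were below 0, and Rgs5 was above it (0.27) with every Ppif-/- heart above every WT heart. In the second list 4 markers were below 0, and Col1a1 (0.21) and Col1a2 (0.27) were above it. At an unadjusted p under 0.05, 2 macrophage markers were higher, 3 smooth muscle and pericyte markers were lower and 1 higher, and 1 fibroblast marker was lower. The shares over all probe sets tested were 6.81% lower and 6.1% higher at that level, and 1.09% called in limma. The calls of Cd68, Tagln and Pdgfra were each lost without any single heart (adjusted p from 0.0551 to 0.145, 0.0537 to 0.122 and 0.0693 to 0.0991). The part of these cells in the differences above was not tested.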

How the data were processed

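Total RNA of 6 mouse hearts was measured on arrays. The authors deposited a log2 value for each probe set, summarised with RMA per the submitters' processing notes. Software and version are not named in the labels. At low signal RMA understates differences. The 35557 probe sets (1.91 to 14.63, 0 missing) were used as deposited, and 0 columns lacked a sample. Precision is limited by there being 6 arrays.

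Of the probe sets, 21789 carried 1 gene symbol in the platform annotation, 1621 several and 12147 none. Symbols were updated by Entrez identifier to the GRCm38.p6 gene table, which matched 21698. The 23410 with a symbol were fitted with limma 3.58.1 in R 4.3.3 (lmFit, eBayes, 2-sided, no covariates) and adjusted together by Benjamini-Hochberg. Where a gene had 2 probe sets, the one with the higher mean led. Every member was named, with Ppif and, in each further list, all called genes and the 2 with the smallest p. Ppara, Alas2 and the called marker genes were added after their values were seen. The members and lists were chosen with earlier results of these data known, so no list was tested as a set. Nothing says whether the hearts of a group came from separate litters, and p-values measure the spread between these hearts. No scan date or other batch was given. The procedure was tested on simulated arrays.

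Alternatives were a replicate block, removal of dim probe sets, other choices of probe sets, quantile normalization, median centring, trended or robust eBayes, array weights and leaving out each heart.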

Additional observations from a re-analysis of the deposited data

How the results depend on the processing

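Over the 16 other settings, 27 of the 35 genes kept the sign of their difference in each, and 8 did not. The replicate number pairs no hearts by any label, and deviations of same-numbered hearts correlated at -0.0767, -0.0608 and 0.118. With the replicate block, 160 of all probe sets passed in place of 254 and 0 members did. In that fit 9 members were under an unadjusted p of 0.05, 8 lower and 1 higher, beside 6.33% and 5.92% of all probe sets. The calls of Lpin1, Cd68, Tagln and Pdgfra were lost with the block (adjusted p = 0.0952, 0.098, 0.0887 and 0.0929). Those 4 were lost as well with the whole table tested. The count over all probe sets was 405 on the brighter probe sets, 131 with the whole table tested, 453 with an intensity trend and 386 with array weights, and leaving out 1 heart gave 131 (Ppif-/- heart 3) to 171 (Ppif-/- heart 1), with 139 without Ppif-/- heart 2 and 149, 158 and 147 without WT hearts 1, 2 and 3. Members past the threshold numbered 1 on the brighter probe sets (Acad11) and 2 with the trend (Cpt2 and Acad11), and 0 in each other setting, leaving out any heart included. At the unadjusted level 13 members were found with the trend, 12 lower and 1 higher, beside 7.3% and 6.41% of all probe sets. Leaving out 1 heart gave 4 to 9 members, 4 to 7 lower and 0 to 2 higher. The shares over all probe sets were then 5.61% to 6.23% lower and 5.36% to 6.42% higher. With 1 heart left out the median over the members ranged from -0.11 to -0.05. The count of members with every Ppif-/- heart below every WT heart, an alternative chosen after seeing the data like those for the marker genes and Ppara, was 15 after quantile normalization (11.4% of all probe sets), 11 after centring (11.5%) and 14 to 20 without 1 heart (15.1% to 15.9%). Signs turned, with no call in any case, for Acadvl (0.0063) and Ehhadh (0.0103) with array weights, for Ppara with array weights (0.0064) and quantile normalization (0.00019), and for Hadhb (-0.0141) and Acad9 (-0.0059) after centring. Leaving out 1 heart gave ranges that cross 0 for Acadvl (-0.0187 to 0.0207), Hadhb (-0.0122 to 0.0309), Acad9 (-0.0084 to 0.0532), Hadh (-0.0249 to 0.0118), Acaa1a (-0.0710 to 0.0108), Acaca (-0.33 to 0.0423), Angptl4 (-0.42 to 0.10), Oxct1 (-0.0640 to 0.0063), Bdh1 (-0.14 to 0.0648) and Ppara (-0.0537 to 0.0616). Slc22a5, Pdk4 and Slc25a42 passed on the brighter probe sets (adjusted p = 0.0414, 0.043 and 0.0307), Pdk4 also after centring (0.0376) and with the trend (0.0302), and Slc25a42 with the trend (0.0398) and array weights (0.028). The cause of these shifts was not tested.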
